A study of Mus musculus with 62 samples.

Results

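The genes described here are 8 in number: the nuclear receptor gene Ppara and 7 genes known as its targets or as parts of the fatty acid oxidation and fasting programme around it, Cyp4a10, Cyp4a14, Acot1, Cpt1a, Ehhadh, Pdk4 and Fgf21. They are 8 of the 18821 genes listed in any of 3 count tables, and were taken by mouse Entrez identifier from a list of names. All 8 were listed in the liver. Ppara, Acot1, Cpt1a, Ehhadh and Pdk4 (5 of 8) were listed in the tables of both brain regions, prefrontal cortex and striatum, whereas Cyp4a10, Cyp4a14 and Fgf21 were not. Every listed member passed the filter on low counts in its tissue.

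PPAR alpha is a nuclear receptor that binds fatty acids and fatty acid derivatives, pairs with RXR and switches on genes that take up, activate and burn fatty acids. It is most active in the fasted liver, where its targets feed mitochondrial and peroxisomal beta-oxidation, omega-oxidation by Cyp4a enzymes and ketone body synthesis. Rodent livers respond to synthetic PPAR alpha agonists with a large rise of Cyp4a10, Cyp4a14 and Acot1. Pdk4 and Fgf21 are switched on in fasting by PPAR alpha together with other regulators.

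The study gave female C57BL/6 mice an oral mixture of polychlorinated biphenyls (PCBs), persistent chlorinated pollutants, at 0.1, 1 or 6 mg/kg, or the vehicle alone. The mixture, named MARBLES, is proportioned after PCBs found in women of a pregnancy cohort of that name. Bulk RNA sequencing was done on the liver and on punches of the prefrontal cortex and striatum. In order of rising dose from vehicle, the groups held 4, 4, 6 and 6 liver libraries, and 4, 5, 6 and 6 libraries of each brain region. Mouse age, length of exposure and time of tissue collection are not given in the sources used here. Libraries are named below by the number in their label. The labels do not state that libraries came from separate mice, so p-values measure the spread between libraries.

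Library totals were 7381179 to 10203247 counts for liver, 8722232 to 12135200 for prefrontal cortex and 8283032 to 12019651 for striatum. Levels are given as CPM, counts per 1e6 counts of a TMM-scaled library. The tissue labels were checked against markers: the summed level of 6 hepatocyte genes was 80160 to 175800 CPM in the liver, where 6 neuronal genes summed to 6.13 to 47.9 CPM, and the neuronal genes summed to 5099 to 6171 CPM in prefrontal cortex and 3027 to 4600 CPM in striatum. Region markers separated the brain tissues less. The 4 cortical neuron genes summed to 1278 to 2237 CPM in prefrontal cortex and 62.35 to 1605 CPM in striatum. The 6 striatal neuron genes summed to 727.5 to 2324 CPM in prefrontal cortex and 2120 to 5278 CPM in striatum. The ranges overlapped in both lists, and the part of this in the brain comparisons was not tested. No pair of libraries of a group was close enough in its counts to be a single library deposited again. A gene is said to have risen or fallen, or to be called, only where its adjusted p from edgeR's quasi-likelihood test was under 0.05, with Benjamini-Hochberg adjustment over all genes of the table.

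The positions below are those of the RefSeq gene list on GRCm38.p6, on the same GRCm38 sequence as the mm10 build named in the submitters' processing notes. Ppara lies at chr15:85734910-85806851, Cpt1a at chr19:3322326-3385735, Ehhadh at chr16:21761285-21787834, Acot1 at chr12:84009502-84017670, Pdk4 at chr6:5483351-5496278 and Fgf21 at chr7:45613890-45615490. Cyp4a14 at chr4:115486200-115496158 and Cyp4a10 at chr4:115518287-115533649 are neighbours in a cluster of Cyp4a genes. Some members have near copies, so the counts of those members are uncertain where reads could be split. The longest open reading frame of Cyp4a10 was 97.2% identical to that of Cyp4a32 and 96.6% to that of Cyp4a31, with 34.1% and 19.2% of its 51-base windows found unchanged in them. Acot1 was 85.5% identical to Acot2, with 43.2% of windows shared, whereas Cyp4a10 and Cyp4a14 were 75.1% identical and shared no window.

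The stretches before the starts of Pdk4 and Fgf21 are shown because these were the 2 members with a negative log2 fold change in the liver at every dose. They are the 250 bases before the start, from RefSeq on GRCm38.p6, minus strand, Pdk4 at chr6:5496279-5496528 and Fgf21 at chr7:45615491-45615740, written 5′ to 3′. Capitals mark an E-box (CACGTG, the motif of clock and related factors).
Pdk4: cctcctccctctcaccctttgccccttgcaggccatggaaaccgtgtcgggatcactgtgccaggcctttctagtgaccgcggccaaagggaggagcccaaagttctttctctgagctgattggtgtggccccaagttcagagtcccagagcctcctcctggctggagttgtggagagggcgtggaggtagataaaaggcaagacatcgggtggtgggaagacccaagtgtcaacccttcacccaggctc
Fgf21: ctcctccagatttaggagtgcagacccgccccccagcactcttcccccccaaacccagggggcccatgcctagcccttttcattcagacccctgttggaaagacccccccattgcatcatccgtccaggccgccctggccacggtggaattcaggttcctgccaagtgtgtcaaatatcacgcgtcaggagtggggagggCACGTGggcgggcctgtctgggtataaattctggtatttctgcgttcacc
In windows of 300 bases (250 before to 50 after the start), which the table holds for 6 of the 8 members, the receptor's response element, a direct repeat of AGGTCA with 1 base between the copies (both strands, at most 2 mismatches) was found in 0 of 6, and in 3.86% of all 32851 windows. The E-box was found in 1 of the 6 windows, that of Fgf21, starting at base -50, and in 7.15% of all windows. The D-box TTANGTAA and the forkhead motif TGTTTAC, each searched on both strands, were in 0 of the 6 windows and in 2.32% and 3.65% of all windows. These 3 motifs were chosen after the expression values were seen, and a match or its absence describes only the letters of these windows.

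The first comparison asks whether PCB exposure changed these genes in the liver. At 6 mg/kg the genes did not move as one group. Pdk4, which restrains glucose oxidation, fell to 0.377 times its vehicle level. Cyp4a10, the omega-hydroxylase known for its strong response to PPAR alpha agonists, had levels above every vehicle library in 6 of 6 livers but did not pass the test. The beta-oxidation genes Cpt1a and Ehhadh differed from vehicle by less than their standard errors, and Acot1 and Cyp4a14 varied more between livers of a group than between groups. Of the 8 genes, 0 were called higher and 1 was called lower, against 2.8% of the 12968 genes tested that were called in either direction, 1.8% higher (234 genes) and 0.995% lower (129 genes). With 1 surrogate variable in the fit that split was 175 higher and 196 lower. The median log2 fold change was 0.27 over the 8 genes and 0.02 over all genes tested. In bulk tissue, fewer cells of a type and less RNA per cell cannot be told apart.

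**Figure D1:**
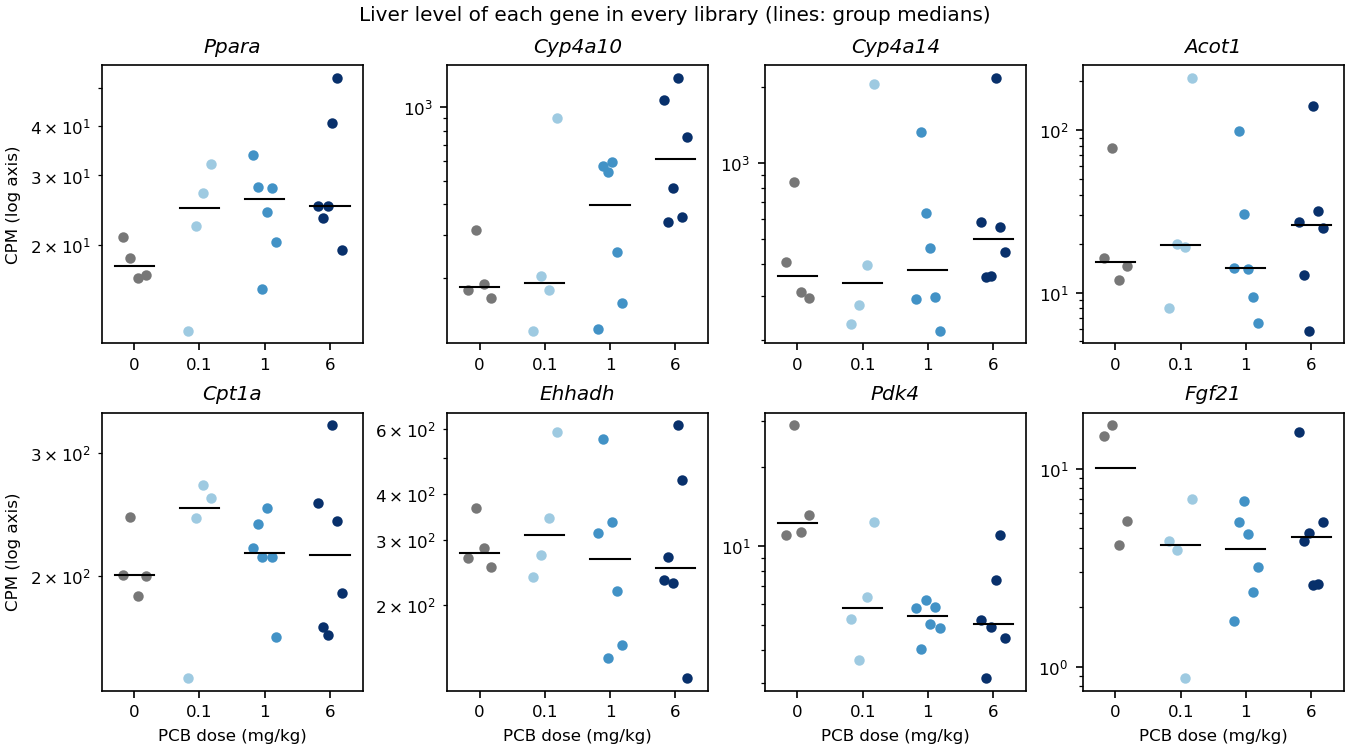
Level of each of the 8 genes in the liver (CPM, log axis) against the PCB dose in mg/kg; each point is 1 library and each line a group median. Pdk4 has its highest group median, 12.2 CPM, in vehicle livers, with 2 dosed livers inside the vehicle range, Cyp4a10 at 6 mg/kg sits between 339 and 1314 CPM, above all vehicle livers, and single livers stand far above the rest of their group for Acot1 and Cyp4a14.

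The receptor itself was modestly expressed. Ppara was at 21.0, 18.5, 16.5 and 16.8 CPM in the 4 vehicle livers. At 0.1 mg/kg it was at 12.1, 22.4, 27.2 and 32.2 CPM. The vehicle livers lay close together and the dosed livers spread around and above them. Ppara at 1 mg/kg ranged from 15.4 through a median of 26.1 to 33.9 CPM, and at 6 mg/kg from 19.4 through 25.05 to 53.02 CPM. At 6 mg/kg 5 of 6 livers were above the highest vehicle liver. The log2 fold change was 0.77 (SE 0.282, edgeR adjusted p = 0.109), so the difference did not pass the test over all genes. With 1 surrogate variable it passed, at 1.00 (edgeR adjusted p = 0.00672).

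Cyp4a10 and Cyp4a14 hydroxylate the far end of fatty acids in the endoplasmic reticulum, the first step of omega-oxidation. Cyp4a10 was at 179, 315, 189 and 166 CPM in the vehicle livers. At 0.1 mg/kg 3 livers lay at 122, 203 and 178 CPM and 1, library 29, at 902 CPM. The lowest, median and highest levels at 1 mg/kg were 124, 398 and 594 CPM. The 1 mg/kg livers thus ran from below to above the vehicle range. At 6 mg/kg they were 339, 612 and 1314 CPM, and the ranges of the 6 mg/kg and vehicle livers did not overlap, which held for 6.76% of all genes tested in either direction and for 3.26% in this direction. The log2 fold change at 6 mg/kg was 1.75 (SE 0.586, edgeR adjusted p = 0.0903), short of the threshold. With DESeq2 Cyp4a10 passed (log2 fold change 1.76, adjusted p = 0.0463).

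The near copies of Cyp4a10 were low, at 2.45 ± 1.04 CPM per kb of transcript (SD, n = 4) for Cyp4a31 and 4.06 ± 0.97 for Cyp4a32 in vehicle livers, where Cyp4a10 itself was at 101 ± 32.9 on that scale. Reads of Cyp4a10 may have been counted for these copies where sequence is shared, which was not tested, so their values do not stand apart from those of Cyp4a10. At 6 mg/kg the log2 fold change of Cyp4a31 was 1.64 (SE 0.474, edgeR adjusted p = 0.0609). Its 6 mg/kg livers, 6 of 6, lay above the vehicle maximum, as in 3.26% of all genes. Cyp4a32 had 1.07 (adjusted p = 0.150) with 4 of 6 above. Over dose rank Cyp4a31 rose, by 0.49 log2 units per step (SE 0.142, edgeR adjusted p = 0.048). That call was kept only in the fits without library 29, 41, 42, 48, 50 or 56, out of 20 fits that left out 1 library, with adjusted p from 0.0282 to 0.113.

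Cyp4a14 was at 406, 843, 311 and 294 CPM in vehicle livers and at 232, 276, 395 and 2052 CPM at 0.1 mg/kg. At 1 mg/kg it ran from 218 through a median of 378 to 1326 CPM, and at 6 mg/kg from 356 through 502 to 2169 CPM. The 4 groups overlapped almost wholly, and each held 1 liver far above the others. At 6 mg/kg the log2 fold change was 0.69 (SE 0.673, edgeR adjusted p = 0.554), and it was -0.01 without library 55, the liver at 2169 CPM.

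Acot1 cleaves long-chain acyl-CoA in the cytosol and is known as a gene that PPAR alpha agonists induce. It was at 16.35, 78.1, 12.03 and 14.6 CPM in vehicle livers and at 8.01, 20.05, 19.15 and 210.4 CPM at 0.1 mg/kg. The lowest, median and highest levels were 6.50, 14.1 and 98.9 CPM at 1 mg/kg, and 5.83, 26.15 and 142 CPM at 6 mg/kg. Within a dose group the highest liver was thus many times the median one, and the groups overlapped. The log2 fold change at 6 mg/kg was 0.43 with an SE of 0.996 (edgeR adjusted p = 0.823), and its sign turned without library 55, to -0.56. Acot2, its near copy, had 0.48 (adjusted p = 0.621).

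Cpt1a, which moves long-chain fatty acids into mitochondria and is the controlled step of their oxidation, was at 201, 243, 187 and 200.2 CPM in the vehicle livers. At 0.1 mg/kg it was at 143, 242, 270.2 and 258 CPM. At 1 mg/kg it ran from 164 through 216 to 250.5 CPM, and at 6 mg/kg from 164.5 through 214 to 328.5 CPM. Its group medians lay within a narrow band and its log2 fold change at 6 mg/kg was 0.11 (SE 0.205, edgeR adjusted p = 0.775).

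Ehhadh, the peroxisomal enzyme with hydratase and dehydrogenase activity, was at 268, 367, 286 and 254 CPM in vehicle livers and at 239, 274, 345 and 589.8 CPM at 0.1 mg/kg. At 1 mg/kg it ran from 144 through 266 to 564 CPM, and at 6 mg/kg from 127 through 252 to 613 CPM. The dosed groups reached both below and above the vehicle range. The log2 fold change at 6 mg/kg was 0.12 (SE 0.393, edgeR adjusted p = 0.879).

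Pdk4 phosphorylates and shuts off pyruvate dehydrogenase, so that fuel use turns from glucose to fat. It was at 11.03, 28.9, 11.3 and 13.1 CPM in the vehicle livers, the second value being library 4. At 0.1 mg/kg it was at 5.23, 3.675, 6.35 and 12.4 CPM. The 1 mg/kg livers had 4.02, 5.405 and 6.22 CPM as lowest, median and highest, and at 6 mg/kg 3.12, 5.05 and 11.05 CPM. All 6 livers at 6 mg/kg were under the vehicle mean, 5 of 6 were under the lowest vehicle liver, and the sixth, library 56, just overlapped it. The log2 fold change at 6 mg/kg was -1.41 (SE 0.337, edgeR adjusted p = 0.0319). Pdk4 also fell with the rank of the dose, by 0.45 log2 units per step (SE 0.112, edgeR adjusted p = 0.0298), in a test that called 4.81% of all genes tested, 2.85% rising and 1.96% falling. The log2 fold changes at 0.1, 1 and 6 mg/kg were -1.22, -1.60 and -1.41. The slope thus holds a step from vehicle to dosed livers and shows no graded fall between doses. Over dose in mg/kg the slope was -0.12 (SE 0.0637, edgeR adjusted p = 0.247). The gene was thinly covered, with 107 to 302 counts per vehicle library and 26 to 114 at 6 mg/kg.

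The fall of Pdk4 rested partly on single libraries. Without vehicle library 4 the log2 fold change at 6 mg/kg was -0.96 (edgeR adjusted p = 0.181). The adjusted p lost its side of 0.05 in 7 of the 10 fits that left out 1 library and ranged from 0.0088 to 0.181 over the 10, while the log2 fold change stayed between -1.68 and -0.96. The 7 libraries were numbers 3, 4 and 8 of the vehicle group and 52, 53, 54 and 58 of the 6 mg/kg group. The same 7 ended the call over dose rank when left out, and it was kept in the other 13 of 20 fits.

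Other measures moved with the same groups. The clock index, the log2 level of Dbp minus that of Arntl, which peak in opposite phases of the liver's daily cycle, was 2.04 to 5.45 in vehicle livers and 5.76 to 8.60 in all dosed livers, with no overlap. With the clock index as a covariate the log2 fold change of Pdk4 at 6 mg/kg was -0.50 (SE 0.499, edgeR adjusted p = 0.9995). The change of Pdk4 per step of dose rank was then -0.08 (SE 0.137, edgeR adjusted p = 0.902). The slope of log2 counts on transcript GC content was -0.28 to -0.16 in vehicle livers and -0.02 to 0.24 at 6 mg/kg. With that slope as a covariate the log2 fold change was -1.31 (SE 0.473, edgeR adjusted p = 0.371). The summed level of 8 Kupffer cell markers was 146 to 215.5 CPM in vehicle livers and 217 to 418 CPM at 6 mg/kg, and its part in the results was not tested. Because the clock index and the GC slope each separate vehicle from 6 mg/kg livers, their part in the fall of Pdk4 and that of the PCB dose cannot be told apart. Within dose groups, over 20 livers, Pdk4 and the clock index had Pearson r = -0.40 (permutation p = 0.0801) and Spearman rho = -0.38 (permutation p = 0.0976), with r = -0.54 without the 2 livers of most extreme index. Of 16 such relations of the 8 genes with the 2 measures, 0 passed adjustment (adjusted permutation p = 0.427 for this r and 0.347 for rho).

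**Figure D2:**
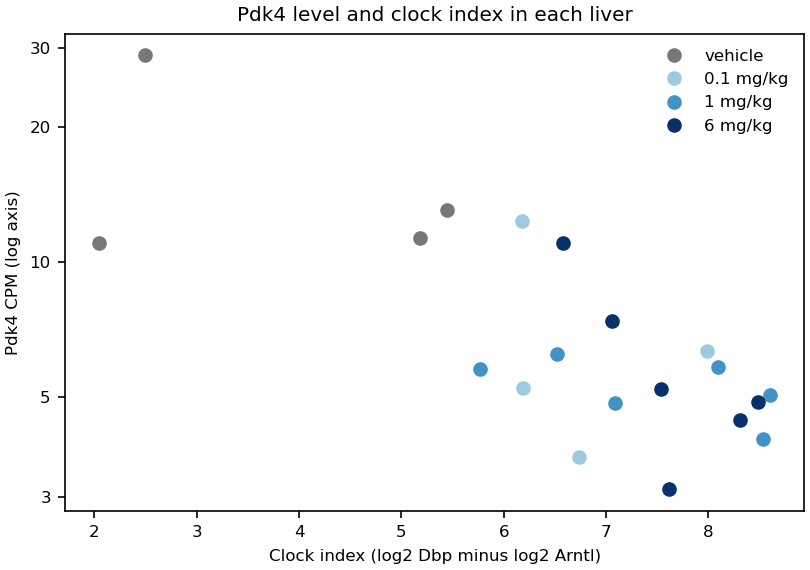
Pdk4 level in each of the 20 livers (CPM, log axis) against the clock index of the same library (log2 Dbp minus log2 Arntl); colours give the dose. The 4 vehicle livers have both the lowest clock index, 2.04 to 5.45, and Pdk4 at 11.03 CPM or more, and only 2 dosed livers reach that Pdk4 level.

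Fgf21 encodes a fasting hormone released by the liver. It was at 14.7, 16.5, 4.11 and 5.48 CPM in vehicle livers and at 4.34, 3.885, 0.879 and 7.04 CPM at 0.1 mg/kg. At 1 mg/kg it ran from 1.71 through 3.93 to 6.87 CPM and at 6 mg/kg from 2.60 through 4.53 to 15.3 CPM. Vehicle libraries 3 and 4 were the higher ones, and only library 4 lay above every dosed liver. The log2 fold change at 6 mg/kg was -0.81 (SE 0.526, edgeR adjusted p = 0.349), and no dose passed the test. It was -0.48 without vehicle library 4 and -1.39 without library 52 of 6 mg/kg, and its sign turned, to 0.53, with the clock index as a covariate.

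At the lower doses 0 of the 8 genes were called. At 1 mg/kg 0 of 12968 genes were called at all (0%) with edgeR. For Pdk4 the log2 difference was -1.60 (SE 0.340, edgeR adjusted p = 0.171), with 6 of 6 livers under the lowest vehicle liver, a separation seen downward in 0.74% of all genes. DESeq2 called Pdk4 at this dose (adjusted p = 0.0124). Fgf21 had -1.35 (SE 0.534, edgeR adjusted p = 0.551), and these were the 2 members with an unadjusted p under 0.05. At 0.1 mg/kg, where 0.0154% of genes were called, the same pair had unadjusted p under 0.05: Pdk4 with -1.22 (SE 0.377, edgeR adjusted p = 0.994) and Fgf21 with -1.34 (SE 0.599, edgeR adjusted p = 0.994). DESeq2 called 0 of the 8 at 0.1 mg/kg. With the clock index as a covariate Pdk4 had -0.69 at 1 mg/kg and -0.48 at 0.1 mg/kg. Without vehicle library 4 it had -1.15 and -0.77. The 3 dose comparisons share the vehicle livers, so that high vehicle values lower the fold change at every dose.

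The dosed livers were also compared with each other. Between 6 and 0.1 mg/kg, a comparison with no vehicle liver in its contrast, 0 of 8 genes were called, 0 had an unadjusted p under 0.05 and 0.0386% of all genes were called, 0.0154% higher and 0.0231% lower. DESeq2 called 0 as well. Pdk4 differed by -0.19 (SE 0.349) and Ppara by 0.41 (SE 0.277), in log2 units. Cyp4a10 had the largest difference among the 8, 1.03 (SE 0.568, edgeR adjusted p = 0.463). Library 29, of 0.1 mg/kg, weighed on this contrast: without it the difference was 2.09 for Cyp4a10, 0.25 for Pdk4 and 1.37 for Acot1, which had -0.66 with it. None of the 8 was called without it. Over dose rank Cyp4a10 had a slope of 0.54 log2 units per step (SE 0.170, edgeR adjusted p = 0.0623) and Ppara 0.24 (SE 0.0843, adjusted p = 0.0871), both short of the threshold. The slope of Cyp4a10 passed with DESeq2 (adjusted p = 0.0315) and without library 29, 41 or 56 (edgeR adjusted p = 0.0305, 0.0405 and 0.0414). That of Ppara passed with 1 surrogate variable (0.32, edgeR adjusted p = 0.00459).

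**Figure D3:**
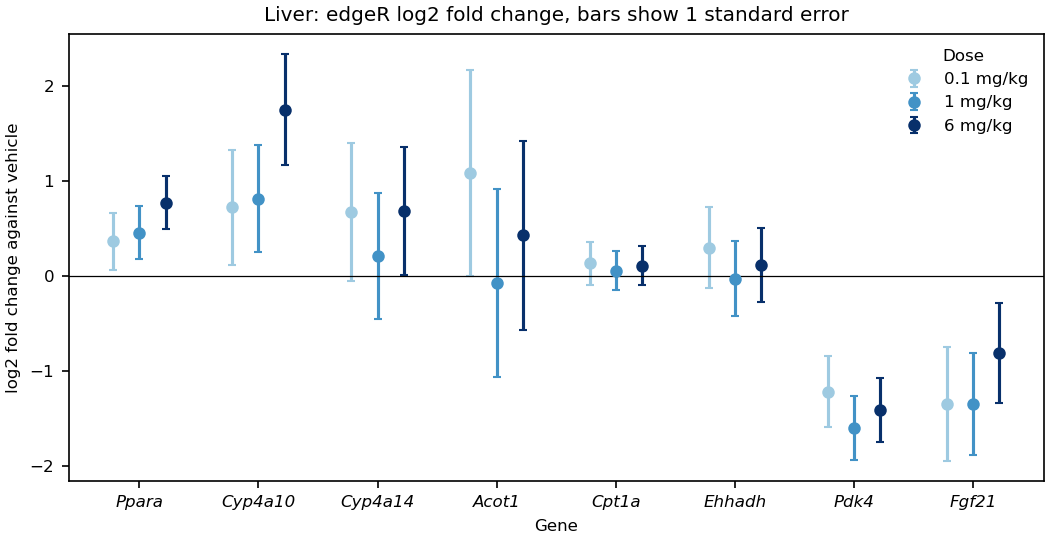
edgeR log2 fold change of each gene in the liver against vehicle at 0.1, 1 and 6 mg/kg; bars are 1 standard error. Pdk4 lies between -1.60 and -1.22 at all 3 doses, Cyp4a10 is at 1.75 at 6 mg/kg, and the bars of Acot1 are the widest; the 3 doses share 1 set of vehicle livers.

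A second pattern lay within the dose groups. In each group the liver highest for Acot1 was also the highest for Cyp4a14, as the correlation of the 2 genes implies. These livers were library 4 (vehicle), 29 (0.1 mg/kg), 42 (1 mg/kg) and 55 (6 mg/kg). Library 4 was the highest of its group for 7 of the 8 genes, library 29 for 7, library 42 for 3 and library 55 for 5. The clock index of these livers was 2.49, 6.17, 8.53 and 7.06, and they did not share an extreme of it.

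Over the 20 livers, taken as deviations from dose group means, 15 of 28 pairs of the 8 genes were correlated at an adjusted permutation p under 0.05, and all 15 were positive. By rank, 14 pairs passed. The share over pairs of all genes was not computed, so the 15 of 28 is no result about these members as a set. The tightest pair was Cyp4a14 and Acot1 (Pearson r = 0.96, Spearman rho = 0.88, both with permutation p = 1e-05, the smallest the 100000 draws can give, adjusted p = 0.00028; r = 0.93 without the 2 livers farthest from the median). Cyp4a10 and Cyp4a14 had r = 0.84 and rho = 0.86 (permutation p = 2e-05 for each, adjusted p = 0.00028; r = 0.75 without the 2 farthest livers). Ppara was most closely tied to Ehhadh, with r = 0.77 and rho = 0.78 (permutation p = 7e-05 and 9e-05, adjusted p = 0.00049 and 0.00084; r = 0.79 without 2 livers), and little to Cyp4a10, with r = 0.12 and rho = 0.15 (permutation p = 0.609 and 0.512; adjusted p = 0.662 and 0.574).

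Pdk4 and Fgf21 stood looser in this pattern. Among the other 6 genes 11 of 15 pairs passed, with r from 0.12 to 0.96. Pdk4 passed with 3 of the 6, with r from 0.36 to 0.56 over the 6, and its 3 passing correlations fell to between 0.37 and 0.39 without the 2 farthest livers, so they rest in part on those. Fgf21 passed with 1 of the 6, Cyp4a10, and its r ran from -0.34 to 0.54. Pdk4 and Fgf21 showed almost no correlation with each other (r = 0.05, rho = -0.00; permutation p = 0.848 and 0.993; adjusted p = 0.879 and 0.993). Values of 1 liver share a library and its scaling factor. The draws moved deviations freely across dose groups, whose spreads differ and whose means had been subtracted. The permutation p-values are therefore approximate and may be too small.

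**Figure D4:**
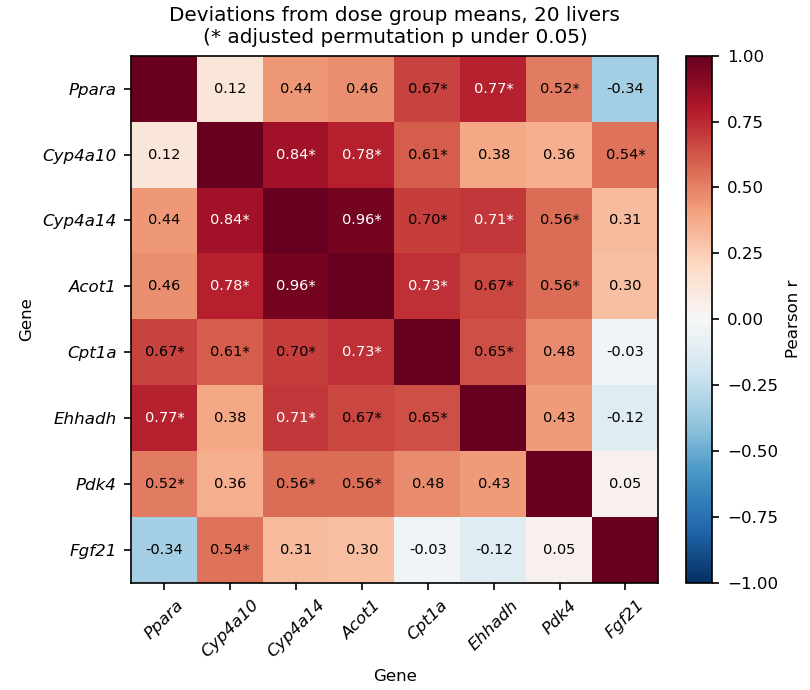
Pearson r between each pair of the 8 genes over 20 livers, computed on log2 CPM as deviations from dose group means; a star marks an adjusted permutation p under 0.05 over 28 pairs. The highest value is that of Cyp4a14 with Acot1, 0.96, and the lowest that of Ppara with Fgf21, -0.34.

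Ratios within a library do not depend on its scaling, and were looked at after the values were seen, as a description without a test. In 6 mg/kg livers Ppara minus Pdk4 was 2.07 to 2.82 log2 units, and in vehicle livers -0.63 to 0.92. Pdk4 minus Cpt1a was -5.66 to -4.41 at 6 mg/kg and -4.16 to -3.06 in vehicle livers. In both ratios the groups did not overlap. This held for 7 of all 28 pairs of members, 5 of the 7 pairs with Pdk4 and 2 of the 21 without it, Cyp4a10 with Cpt1a and Cyp4a10 with Fgf21. The ratios of Pdk4 to Acot1 and to Fgf21 overlapped. The share over pairs of all genes was not computed, so the 7 of 28 is no result about the members. Cyp4a10 minus Cyp4a14 averaged -1.04 ± 0.32 (SD, n = 4) in vehicle, -0.93 ± 0.34 (SD, n = 4) at 0.1 mg/kg, -0.49 ± 0.62 (SD, n = 6) at 1 mg/kg and 0.09 ± 0.69 (SD, n = 6) at 6 mg/kg. The 6 mg/kg range, -0.72 to 0.86, met that of the vehicle livers, -1.42 to -0.72.

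The genes whose within-group pattern was most like each member were searched among 12338 genes with a mean of at least 1 CPM, leaving out the 8 members themselves, as a description over 20 livers. Among the genes most like Cyp4a10 were Abcb4 (r = 0.90) and its near copy Cyp4a31 (0.88). Outside the members, Cyp4a14 was most like Retsat (0.96), Eci2 (0.92) and Agpat3 (0.92). Acot1 was in the same way most like Eci2 (0.95), Crat (0.93) and Retsat (0.91), all below its r of 0.96 with Cyp4a14. Eci2 is a peroxisomal isomerase of fatty acid oxidation, Crat the carnitine acetyltransferase and Retsat a retinol saturase, and Eci2 and Retsat were in the top 3 of both Cyp4a14 and Acot1. Cpt1a was most like Chp1 (0.91), the fatty aldehyde dehydrogenase gene Aldh3a2 (0.89) and Hsdl2 (0.87). Ehhadh was most like Anxa7 (0.90), Dhrs4 (0.90) and Chmp4c (0.89), and Ppara like Mcl1 (0.90), Nab1 (0.87) and Clmn (0.87). For Pdk4 the closest were Dyrk1b (0.74), Lrfn3 (0.74) and Efnb1 (0.74), lower than the top values of the other members. For Fgf21 they were Pcgf2 (0.83), Dgkh (0.81) and Rec114 (0.78).

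Around these members, 154 genes in 11 lists of the pathway and its neighbours were read from the same liver test at 6 mg/kg; 146 passed the count filter. Of them 10 rose and 1 fell (7.53%), against 2.8% of all genes. Much of this was the clock list, where 5 of 15 rose and 1 fell (40.0%). Without it, 5 of 131 genes rose and 0 fell (3.82%). The lists were chosen with earlier results of these data known, so their counts are no independent evidence.

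Outside the clock list, 4 of the genes that rose are described here, each from a list of its own. In the peroxisomal list 1 of 16 rose, Acaa1b, a thiolase of peroxisomal beta-oxidation with a near copy in Acaa1a: its vehicle livers were at 1000 ± 281 CPM (SD, n = 4) and its 6 mg/kg livers at 2395 ± 412 CPM (SD, n = 6), which is 1.26 in log2 units (SE 0.315, edgeR adjusted p = 0.0367). In the uptake and activation list 1 of 12 rose, the fatty acid transport protein gene Slc27a1, from 8.08 ± 1.35 to 19.9 ± 7.32 CPM (1.30, SE 0.282, adjusted p = 0.0233). In the list of other Cyp4 and thioesterase genes 1 of 9 rose, Cyp4f15 (0.79, SE 0.203, adjusted p = 0.0416). In the lipid droplet and other target list 1 of 17 rose, the mitochondrial carrier gene Ucp2 (1.02, SE 0.276, adjusted p = 0.0481). All 4 were named because they passed the test, and in each the 6 mg/kg livers lay above the vehicle range, as in 3.26% of all genes. The medians of these lists were 0.21 for the peroxisomal, -0.29 for the uptake, 0.48 for the Cyp4 and thioesterase, and 0.68 for the lipid droplet and target list, beside 0.02 for all genes.

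In 5 lists 0 genes passed. Their counts under an unadjusted p of 0.05 stand without the share of all genes under that p. They are therefore no result about the lists. Mitochondrial oxidation had 0 of 18, a median of -0.02 and 2 genes with an unadjusted p under 0.05; the smallest p was that of Cpt2, the inner partner of Cpt1a (log2 fold change 0.63, SE 0.220, edgeR adjusted p = 0.0976). Ketone body synthesis had 0 of 5 and a median of 0.10, with the smallest p for the transporter gene Slc16a6 (0.97, SE 0.466, adjusted p = 0.208), and 0 genes under an unadjusted p of 0.05. Pyruvate dehydrogenase kinases and FGF21 receptors had 0 of 10, a median of -0.17 and 3 genes under an unadjusted p of 0.05; the smallest was that of Pdha1, a subunit of the enzyme that Pdk4 acts on (-0.43, SE 0.166, adjusted p = 0.128). The fasting and glucocorticoid list had 0 of 13, a median of -0.43 and 7 genes under an unadjusted p of 0.05, of which 5 were lower; the smallest p was that of the metallothionein gene Mt1 (1.75, SE 0.508, adjusted p = 0.0633). Fatty acid synthesis had 0 of 14, a median of -0.39 and 6 genes under an unadjusted p of 0.05, of which 4 were lower; the smallest was that of Elovl5 (-0.52, SE 0.164, adjusted p = 0.0789). In the clock list the 4 smallest p were those of Tef (1.42, SE 0.256, adjusted p = 0.0130), Per3 (2.09, SE 0.388, adjusted p = 0.0134), Dbp (1.68, SE 0.321, adjusted p = 0.0134) and Ciart (2.88, SE 0.630, adjusted p = 0.0248).

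The pathway counts moved with single livers. They were 0 without vehicle library 3 or without vehicle library 4, 20 without library 56 at 6 mg/kg, and 3 to 7 without vehicle library 7 or 8 or library 52, 53, 54 or 58 of 6 mg/kg. They were 0 with the clock index or the GC slope as a covariate. With DESeq2 the count was 21.

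The last comparison asks whether the members responded in the brain. In vehicle brain Ppara and Ehhadh were thinly covered, with 17 to 57 counts per library, while Cpt1a, Acot1 and Pdk4 had 67 or more. Per kilobase of transcript and in vehicle mice, Cpt1a had the highest level of the 5 in the prefrontal cortex (5.97 ± 0.45 CPM per kb, SD, n = 4), followed by Acot1 (3.90 ± 1.12), Pdk4 (2.52 ± 0.46), Ehhadh (1.01 ± 0.32) and Ppara (0.78 ± 0.10). In that order Cpt1a and Acot1 did not overlap by 1 SD, nor did Pdk4 and Ehhadh, whereas Acot1 and Pdk4 did, and so did Ehhadh and Ppara. In the striatum the order was the same, with Cpt1a at 7.65 ± 1.02, Acot1 at 5.27 ± 0.42, Pdk4 at 3.53 ± 0.70, Ehhadh at 1.504 ± 0.36 and Ppara at 0.67 ± 0.10 CPM per kb, and there no neighbours overlapped by 1 SD.

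In the liver of vehicle mice the order differed. Cyp4a14 was at 186 ± 103, Cyp4a10 at 101 ± 32.9 and Ehhadh at 98.5 ± 16.9 CPM per kb (SD, n = 4), 3 levels that overlapped within 1 SD. Cpt1a followed at 48.1 ± 5.61, then Acot1 at 11.6 ± 12.2, Fgf21 at 10.7 ± 6.64, Ppara at 5.33 ± 0.61 and Pdk4 at 4.61 ± 2.46, of which the last 4 also overlapped. Liver and brain levels can be set side by side only by a choice of scaling. In joint fits with TMM factors taken across both tissues, all 5 members tested in both were higher in the liver than in the prefrontal cortex, where 84.9% of genes differed and 38.9% were higher in the liver. The log2 differences in that fit were 7.55 for Ehhadh (SE 0.241, edgeR adjusted p = 2.79e-12), 3.95 for Cpt1a, 3.70 for Ppara, 2.53 for Acot1 and 1.81 for Pdk4 (SE 0.310, adjusted p = 0.00015). Against the striatum they were 7.03, 3.66, 3.98, 2.15 and 1.39 in the same order, all called, with adjusted p up to 0.013 for Acot1, beside 83.6% of genes that differed and 38% that were higher in the liver. DESeq2 called 4 of the 5 in each and gave no adjusted p for Acot1.

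The printed CPM are scaled within each tissue, and these differences exceed the log2 ratios of the mean levels by about 1: for Pdk4 those ratios are 0.87 against the prefrontal cortex and 0.38 against the striatum, and for Acot1 1.57 and 1.14. In edgeR fits on library totals alone, with no TMM factor, the differences from the prefrontal cortex were lower by 0.90 to 0.91 and those from the striatum by 0.97 to 0.98. The median over all genes moved with them, from -0.19 to -1.09 and from -0.20 to -1.17. Calls over all genes went from 5378 higher and 6367 lower in the liver to 3420 and 8640 against the prefrontal cortex, and from 5314 and 6376 to 3136 and 8918 against the striatum. Ehhadh, Cpt1a and Ppara were called higher in the liver under both scalings in both comparisons. Acot1 was called in neither comparison on library totals, with 1.63 (SE 0.701, edgeR adjusted p = 0.0603) and 1.19 (SE 0.649, adjusted p = 0.122). Pdk4 kept its call against the prefrontal cortex, at 0.91 (SE 0.307, edgeR adjusted p = 0.0146), and lost it against the striatum, at 0.42 (SE 0.306, adjusted p = 0.214). In CPM scaled within each tissue, 3 of the 4 vehicle livers lay inside the striatal range of Pdk4, 9.55 to 15.02.

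Between striatum and prefrontal cortex 0 of the 5 were called, beside 22.2% of all genes; 2 had an unadjusted p under 0.05, Cpt1a (log2 difference 0.28, SE 0.117, edgeR adjusted p = 0.103) and Pdk4 (0.41, SE 0.182, adjusted p = 0.129), and DESeq2 called 0. On library totals alone 1 was called, Cpt1a, at 0.36 (SE 0.125, edgeR adjusted p = 0.0494).

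**Figure D5:**
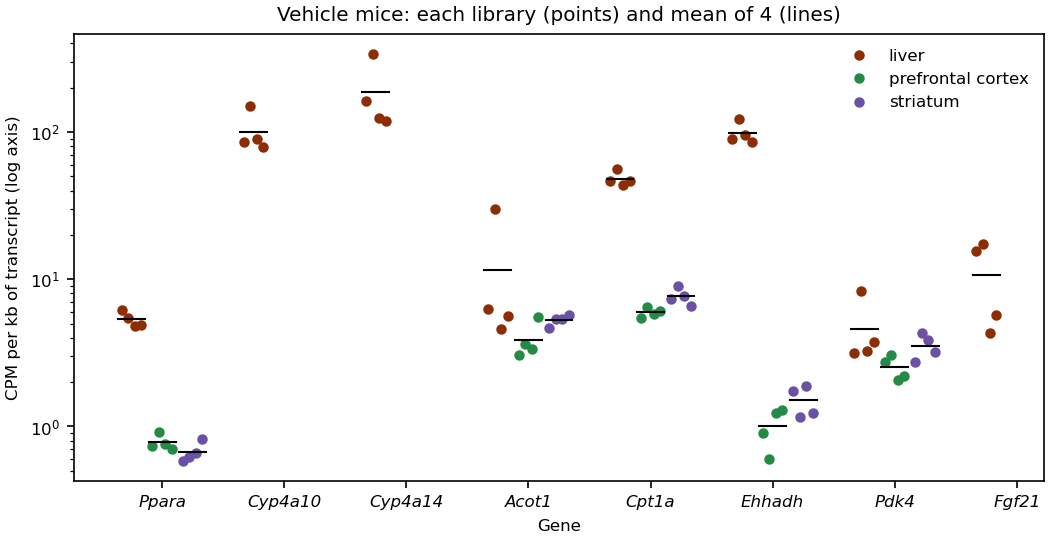
Level of each gene in vehicle mice, in CPM per kb of its longest transcript (log axis), in the liver, prefrontal cortex and striatum; points are libraries, lines the mean of 4, and CPM are scaled within each tissue. On that scale the mean of Ehhadh is 98.5 in the liver and 1.01 in the prefrontal cortex and that of Pdk4 4.61 and 2.52, ratios that are lower than in the joint fit across tissues; Cyp4a10, Cyp4a14 and Fgf21 have liver points only.

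At 6 mg/kg 0 of 5 members were called in the prefrontal cortex (0% of 14838 genes) and 0 of 5 in the striatum (0% of 15118 genes), with 1 unadjusted p under 0.05 in each. DESeq2 gave no adjusted p to any of the 5 in the prefrontal cortex, and called 0 of the 3 members it adjusted in the striatum. In the prefrontal cortex that was Ppara, at 2.51, 3.15, 2.59 and 2.40 CPM in vehicle libraries and from 0.656 through a median of 1.39 to 3.02 CPM at 6 mg/kg, where 5 of 6 lay under the lowest vehicle library. Its log2 fold change was -0.73 (SE 0.343, edgeR adjusted p = 0.522), from 7 to 30 counts per library. In the striatum it was Pdk4, at 9.55, 15.02, 13.5 and 11.2 CPM in vehicle libraries and from 7.01 through 9.002 to 13.3 CPM at 6 mg/kg. The ranges overlapped, with 4 of 6 libraries under the vehicle minimum (log2 fold change -0.37, SE 0.176, edgeR adjusted p = 0.310).

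None of the other brain differences from vehicle had an unadjusted p under 0.05. In the prefrontal cortex at 6 mg/kg the log2 fold change of Pdk4, at 7.97 to 12.9 CPM, was 0.16 (SE 0.164), Cpt1a had -0.00 (SE 0.111), Acot1 0.02 (SE 0.162) and Ehhadh 0.12 (SE 0.324). In the striatum Ppara had -0.42 (SE 0.309), Acot1 0.29 (SE 0.195), Cpt1a 0.01 (SE 0.156) and Ehhadh 0.09 (SE 0.231). At 0.1 and 1 mg/kg 0 of 5 members were called in either brain region, in tests that called 0% of genes, and 0 had an unadjusted p under 0.05. DESeq2 called 0 there too. Between 6 and 0.1 mg/kg 0 of 5 were called as well, beside 0.108% of genes in prefrontal cortex and 2.91% in striatum (1.66% higher, 1.25% lower). Pdk4 had an unadjusted p under 0.05 in both regions, with opposite signs: cortical Pdk4 differed by 0.34 (SE 0.155, edgeR adjusted p = 0.464) and striatal Pdk4 by -0.45 (SE 0.166, edgeR adjusted p = 0.118). The GC slope separated those striatal groups, at 0.29 to 0.43 at 6 mg/kg and -0.32 to -0.03 at 0.1 mg/kg, so its part and that of the dose cannot be told apart. Over dose rank 0 of 5 passed in either region, beside 0.0202% and 0% of genes, with an unadjusted p under 0.05 for Ppara in the prefrontal cortex (-0.23 per step, SE 0.104) and for Pdk4 in the striatum (-0.12, SE 0.0596). In the 11 pathway lists 0 of 134 genes in prefrontal cortex and 0 of 133 in striatum were called at 6 mg/kg against vehicle, with 16 and 29 at an unadjusted p under 0.05. Between 6 and 0.1 mg/kg the lists had 1 gene called lower in prefrontal cortex (0.746%). In the striatum 2 were called higher and 3 lower (3.76%), beside the 2.91% of all genes.

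Whether the response at 6 mg/kg differed between tissues was tested as an interaction. For Pdk4 the log2 fold change in the liver minus that in the prefrontal cortex was -1.59 (SE 0.421, edgeR adjusted p = 0.0676), and for Ppara it was 1.49 (SE 0.434, edgeR adjusted p = 0.0866). Neither passed, so 0 of 5 members were called, beside 0.908% of genes. DESeq2 called both, with adjusted p = 0.0152 for Pdk4 and 0.0190 for Ppara. Of 140 pathway genes tested in this interaction with edgeR, 5 were called higher and 1 lower (4.29%), from lists chosen with earlier results known. Between liver and striatum the interactions were -1.05 for Pdk4 (SE 0.432, edgeR adjusted p = 0.296) and 1.18 for Ppara (SE 0.415, adjusted p = 0.255), with 0 of 5 called beside 0.0277% of genes, 2 at an unadjusted p under 0.05 and 0 by DESeq2. Between striatum and prefrontal cortex 0 of 5 were called, beside 0% of genes, with 1 unadjusted p under 0.05, that of Pdk4 (-0.55, SE 0.250, adjusted p = 0.746), and 0 by DESeq2.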

How the data were processed

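RNA sequencing of liver, prefrontal cortex and striatum was analysed from 3 tables of counts per gene that the authors deposited. Reads were aligned with HISAT2 to mm10 after FastQC, per the submitters' processing notes; versions, the counting tool and its strand setting are not given in the sources used here. Per the labels, RNA came from TRIzol and column extraction. The deposited tables list genes with a total of at least 10 counts, so an unlisted gene was at most thinly detected. The lowest chi-square per degree of freedom between libraries of a group was 2.94 over genes with at least 20 counts.

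Samples were grouped by their treatment label. Each tissue was fitted with all 4 dose groups in edgeR 4.0.16 (R 4.3.3; filterByExpr, TMM, robust quasi-likelihood test, Benjamini-Hochberg threshold 0.05), and tissue contrasts in joint fits with TMM across tissues; library totals alone were added there after seeing the data. Printed CPM use TMM within each tissue. The SE was taken as the size of the log2 fold change over the root of F. Correlations used log2 CPM with a prior count of 2 and 100000 permutation draws. DESeq2 1.42.0, sva 3.50.0, other filters and offsets, added covariates and left-out libraries were alternatives. The fits were also run on simulated counts with the same dispersion for every gene. The members differ widely in their spread, so that run does not bear on their calls. Figures used matplotlib 3.10.9. Names and positions are from RefSeq (GRCm38.p6), and GC content and length from the longest GENCODE transcript, known for 96.54% of liver genes.

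The members and lists were chosen with earlier results of these data known. From each pathway list the text names every called gene up to 4 by smallest p, or the gene of smallest p where none was called; some items that these rules or the likeness search pick are not reported here. Motifs other than the receptor's, and the ratios, were chosen after values were seen.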

Additional observations from a re-analysis of the deposited data

Results flagged for a closer look

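Single libraries far from the rest of their dose group were looked for in 72 groups of 4 to 6 libraries (a gene, tissue and dose each), with Dixon's gap test. It marked 15 groups where chance at 1 in 20 gives 3.6 for normally distributed values, and in all 15 the library was the highest. The test was run on CPM without a log, which are skewed to high values. More marks than 3.6, at the high end, are thus likely beforehand, and the 15 is no result. The genes share libraries, so the 15 are not independent.

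Acot1 in the liver was marked at every dose: vehicle library 4 at 78.1 CPM (next 16.35), library 29 of 0.1 mg/kg at 210.4 CPM (next 20.05), library 42 of 1 mg/kg at 98.9 CPM (next 30.5) and library 55 of 6 mg/kg at 142 CPM (next 31.7). Cyp4a10 was marked in library 4, at 315 CPM (next 189), and library 29, at 902 CPM (next 203). Cyp4a14 was marked in library 29, at 2052 CPM (next 395), and library 55, at 2169 CPM (next 587). Pdk4 was marked in vehicle library 4, at 28.9 CPM (next 13.1), and Fgf21 in library 52 of 6 mg/kg, at 15.3 CPM (next 5.39).

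In the prefrontal cortex at 1 mg/kg, Pdk4 in library 46 was at 11.1 CPM (next 8.85) and Ppara in library 48 at 3.39 CPM (next 1.86). In the striatum Cpt1a in library 45 of 1 mg/kg was at 54.3 CPM (next 34.7), Ppara in library 29 of 0.1 mg/kg at 3.32 CPM (next 2.07) and Ppara in library 50 of 1 mg/kg at 3.69 CPM (next 2.07). What set these libraries apart was not tested.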

How the results depend on the processing

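The members' fold changes at 6 mg/kg against vehicle, 8 in the liver and 5 in each brain region, gave 342 values under an alternative. Of these 329 kept their side of the threshold, 0 called values reversed and 29 uncalled values changed sign. Pdk4 in the liver, the only one called, kept its call in 8 of its 19 alternatives and accounts for 11 of the changes of side. Of 447 counts, 394 stayed within 1.5 times. In the liver at 6 mg/kg 1 of the 8 genes was called; with DESeq2 it was 2, with 1 surrogate variable 2, with an offset for GC and length 0, with a covariate (GC slope or clock index) 0, with the 2 groups alone 0, and 0 to 1 without single libraries (unadjusted 3 to 4 where 0). The 11 pathway genes became 21 with DESeq2, 7 with no filter on low counts, 6 with the offset, 0 with either covariate, 0 with the 2 groups alone and 0 to 20 without single libraries (unadjusted 37 to 38 where 0). The dose rank slope, 1 called, gave 2 with DESeq2, 0 with the offset, either covariate or dose in mg/kg, and 0 to 2 without single libraries (2 without 29, 41 or 56). With 1 surrogate variable Pdk4 missed the threshold in that slope (edgeR adjusted p = 0.0643).

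Counts of 0 moved in 6 places: the liver at 1 mg/kg gave 1 with DESeq2, pathway genes at 6 mg/kg gave 2 in the prefrontal cortex with the GC slope and 2 in the striatum with DESeq2, and the striatal slope over mg/kg gave 1. The interaction of liver and prefrontal cortex gave 2 with DESeq2 and 0 to 1 without single libraries (1 without 55 or 56), and striatum against prefrontal cortex in vehicle mice 0 to 1 (1 without 8), and 1 on library totals alone. On library totals, a scaling chosen after seeing the data, the 5 called for liver against striatum became 3. The cause was not tested. The 15 correlated pairs became 12 to 17 when the 10 vehicle and 6 mg/kg livers were left out in turn; the other 10 livers were not left out. All genes called in the liver at 6 mg/kg were 363, 1138 with DESeq2, 241 with no filter, 125 with the offset, 1 with the GC slope and 0 with the clock index.

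The replicate block on the library number, which recurs across tissues, left all 6 tissue counts as they were (0 or 5). Same-numbered libraries had a mean correlation of deviations of 0.00635 for liver and prefrontal cortex and 0.0052 for liver and striatum. Libraries of different numbers had -0.0016 and -0.0020 there. For striatum and prefrontal cortex the same-number mean was 0.113, beside -0.0233 for different numbers. In the same order, 3 of 20, 2 of 20 and 3 of 21 correlated best with their own number. The main fits did not treat the numbers as pairs. Between the brain regions same-numbered libraries were more alike on average, and whether they came from the same mouse was not tested. The main tissue contrasts and interactions may therefore count related libraries as independent. Counts were low for Pdk4 and Fgf21 in the liver and for Ppara and Ehhadh in the brain, and the part of depth was not tested.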
